A study of Rattus norvegicus with 3 samples.

Results

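The genes described here are the collagens and the enzymes and helper proteins that make, cut and cross-link them. They were measured in a rat line of induced pluripotent stem (iPS) cells, F65, against RNA of cultured bone marrow cells and ear fibroblasts. Members were the array probes whose gene name in the scanner files, with the endings for predicted or mapped genes removed, is that of a collagen chain or of a prolyl or lysyl hydroxylase, lysyl oxidase, Serpinh1, Pcolce, Bmp1 or prolyl 3-hydroxylase 1. This rule found 77 of the 41012 probes on the array and 48 of its 35561 gene names. They are 10 fibrillar collagens, 7 network-forming collagens, 15 other collagens, 15 enzymes and helpers, and Col4a3bp, which the rule caught by its name alone. Col4a3bp encodes a ceramide transfer protein and is no collagen, so it was kept apart.

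Each of 3 untreated iPS F65 samples, grown on irradiated mouse embryonic fibroblasts as feeder cells, was labelled with Cy3 and hybridised on its own 2-colour Agilent array. The other channel, Cy5, held mix1 on every array, for which the labels describe cultures of rat bone marrow cells and of primary fibroblasts from the ear, both in medium with serum. The labels give no strain or age of the animals, no proportions for mix1, and do not say whether feeder cells were removed before RNA extraction. F65 is 1 line, and the labels do not say that its 3 samples came from separate cultures, so p-values cover only the scatter of these 3 samples, which may be technical. The dyes were never swapped and the arrays shared 1 slide and 1 scan time, so an effect of dye cannot be told apart from the difference between the cells.

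A collagen is a trimer of chains in which glycine recurs at a fixed spacing along the chain, which lets the chains wind into a triple helix. New chains are hydroxylated on proline and lysine in the endoplasmic reticulum and held by the chaperone Hsp47 until they are secreted. Fibrillar collagens are then trimmed by proteinases outside the cell, assemble into fibrils and are cross-linked by lysyl oxidases, whereas type IV collagen forms the meshwork of basement membranes. Fibroblasts and other stromal cells are the main makers of fibrillar collagen in connective tissue.

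The repeat is written in the probes themselves, which are 60 bases long. Below are probes of Col4a5 and Col9a1, a basement membrane chain and a cartilage chain, with the glycine codons (GGN, on the strand of the probe, searched at a spacing of 9 bases and required 5 times in a row) in capitals.
Col4a5 probe: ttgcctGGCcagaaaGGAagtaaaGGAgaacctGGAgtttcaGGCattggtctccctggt
Col9a1 probe: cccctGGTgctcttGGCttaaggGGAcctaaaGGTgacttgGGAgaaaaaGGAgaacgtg
The array files place them at chrX:37012452-37012511 on the minus strand and chr9:22978230-22984184 on the plus strand, the latter span being wider than the probe. The files' header names the build rn3. Of the 41012 probes, 7 (0.0171%) hold such a run, and 3 of these 7 are among the 77 probes of the members.

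Nearly all measured collagen and collagen-processing genes were lower in the iPS cells than in mix1. The value used is the log2 ratio of the scanner software's processed signals, iPS F65 over mix1, so a negative value means a lower signal in the iPS cells. A probe was tested if the scanner software rated it well above background 3 times out of 3 in at least 1 channel, a gene was represented by its brightest tested probe, and a gene was called at an adjusted p under 0.05 with a log2 ratio of at least 1 in size. Among the 47 members other than Col4a3bp, 42 were tested and 40 were called lower, against 24.5% of all 21805 genes tested. None was called higher, against 30.9% of all genes. The tested members other than these 40 were Col2a1 and Col9a1. The ratio was below 0 on each of the 3 arrays for all 42, against 42.2% of all genes. In RNA from whole cultures, fewer cells of a type and less RNA per cell cannot be told apart.

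These shares need the way members passed the filter. By their brightest probe, 33 of the 42 genes had signals above background on every array in iPS cells and mix1 alike, and 31 of those 33 were called lower. When the test was limited to such probes, which brought in a second probe of Loxl3, 32 of 34 members were called lower, against 18.7% of all genes, and none was called higher, against 28.9%. The ratio was below 0 on every array for all 34, against 39.6% of all genes. After another background correction (normexp, with uneven backgrounds replaced) and loess, 40 of the 42 were again called lower, with Col9a1 in and Loxl4 out, against 26.1% of all genes lower and 18.2% higher. Fewer were called lower with normexp on the local backgrounds as given. There, 7 of 10 fibrillar, 4 of 5 network and 6 of 12 other collagens and 14 of 15 enzymes and helpers were lower, with 2085 of all genes lower. By processed signals, the 40 calls also count the 9 members other than the 33 above. The brightest probe of these 9 passed through mix1 alone and so had to be lower. No test is drawn from it: Col5a3, Col12a1, Col6a3, Col14a1, Col7a1, Col8a2, Col23a1, Loxl3 and Loxl4. For the last 6 of these, the iPS signal of that probe was above background on no array, and the difference is given as a bound. The 5 members that were not tested were Col4a4, Col9a3, Col10a1, Col17a1 and Col22a1, whose probes did not reach background on all arrays in either channel.

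**Figure D1:**
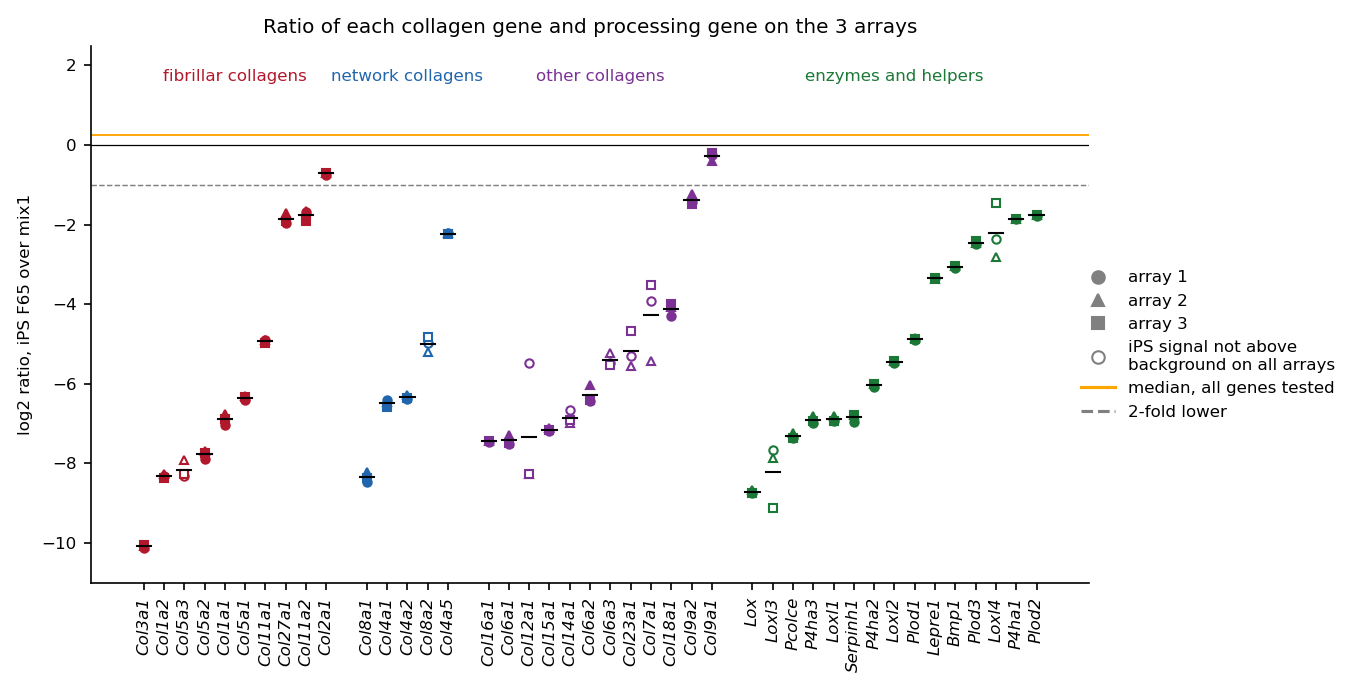
Log2 ratio of iPS F65 over mix1 for the 42 tested genes, with 1 point per array, a bar at the mean of the 3 arrays and open points where the iPS signal was not above background on all arrays. All points lie below 0 and below the median of all genes tested (0.25, orange line), and Col3a1 lies lowest at -10.09.

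The differences were large. The median log2 ratio was -6.62 for the fibrillar collagens, -6.35 for the network collagens, -5.85 for the other collagens and -5.45 for the enzymes and helpers, against 0.25 for all genes tested. Of the 42 genes, 30 were at least 16-fold lower and 22 at least 64-fold lower by their mean ratio, against 6.52% and 2.30% of all genes. Among the 34 members with a probe above background in both channels, 22 and 18 passed these folds, against 3.31% and 1.16% of all genes measured so. With the 6 bounded genes set at their bound, the counts over the 42 were 27 and 21, and the median of the other collagens became -4.99, while the medians of the remaining classes stayed at -6.62, -6.35 and -5.45. Of the members above background in both channels, Col3a1, Lox, Col8a1 and Col1a2 were among the 100 lowest ratios of all genes tested.

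**Figure D2:**
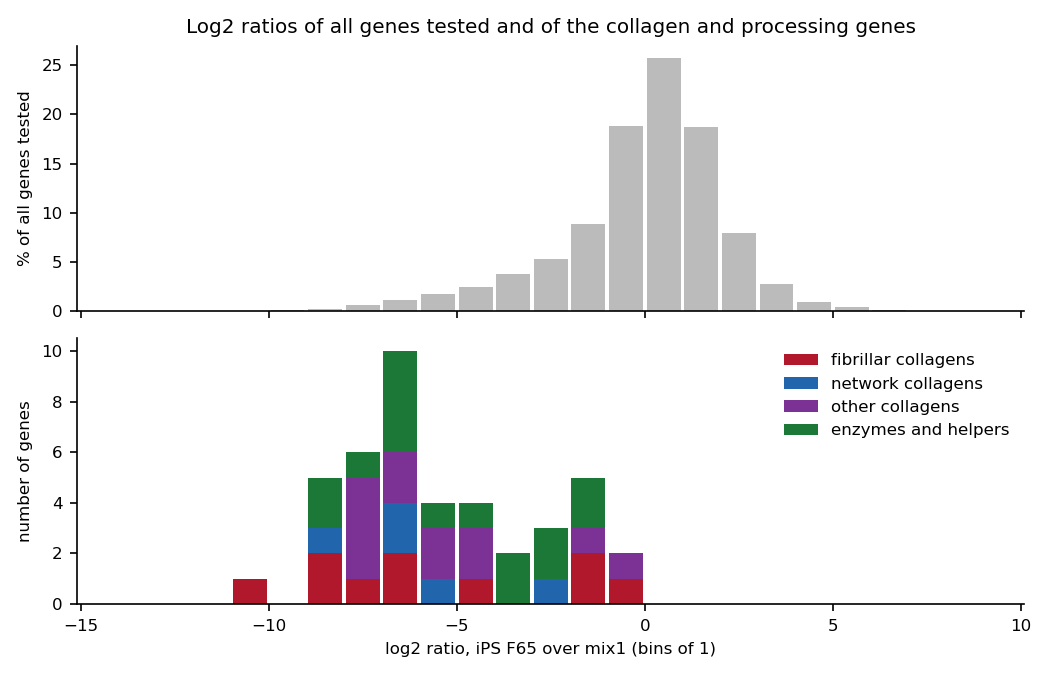
Log2 ratios in bins of 1 for all 21805 genes tested, as a percentage (top), and for the 42 collagen and processing genes, as a number coloured by class (bottom). The bulk of all genes lies around the median of 0.25, and most collagen and processing genes lie below -4.

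The fibrillar collagens, which build the fibres of skin, bone and vessel walls, held the lowest ratio of all members. The Col3a1 probe and a Col5a2 probe, for chains of types III and V whose genes lie on the same chromosome, share a run of 16 bases, shown in capitals.
Col3a1 probe: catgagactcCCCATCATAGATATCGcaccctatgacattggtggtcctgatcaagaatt
Col5a2 probe: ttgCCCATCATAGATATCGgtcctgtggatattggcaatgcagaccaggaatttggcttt
The array files place them at chr9:44318879-44318938 on the plus strand and chr9:44376974-44377033 on the minus strand (rn3). Whether a shared run of this length lets RNA of one gene bind the probe of the other was not tested.

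Col3a1, the chain of type III collagen, gave processed signals of 292.7, 374.1 and 379.0 in the iPS channel against 330230, 407784 and 401840 in mix1. The channels were about 3 orders of magnitude apart on every array, with no overlap. The log2 ratio was -10.09 ± 0.05 (SD, n = 3), a signal 1092-fold higher in mix1 (limma, adjusted p = 5.37e-06), and it ranked 18 from the lowest of all genes tested.

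The chains of type I collagen, the main collagen of skin and bone, were both lower. Col1a2 read 915.8, 1149 and 1087 in the iPS cells against 290550, 354918 and 361497 in mix1. Its log2 ratio was -8.32 ± 0.05 (SD, n = 3; limma, adjusted p = 5.37e-06), with every iPS signal far under every mix1 signal. Col1a1 read 2653, 4032 and 3731 against 346253, 438661 and 443652, a log2 ratio of -6.90 ± 0.13 (SD, n = 3; limma, adjusted p = 7.24e-06). The iPS signal of the first array was the lowest of the 3 for both genes, and the mix1 signal of that array was also the lowest.

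The distance of Col1a1 depended on the probe. A pair of its probes, at chr10:83652273-83652332 and chr10:83652326-83652385 on the plus strand (rn3), overlap by 7 bases at the end of the coding sequence, shown in capitals together with the TAA stop codon that closes the second.
Col1a1 probe 1: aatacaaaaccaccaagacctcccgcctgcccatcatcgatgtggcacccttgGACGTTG
Col1a1 probe 2: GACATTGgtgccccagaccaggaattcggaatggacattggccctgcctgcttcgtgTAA
The overlap differs by the substitution G4A, counted from its first base, with the base of probe 1 named first. The probes were designed on different source sequences and gave nearly the same log2 ratio, -6.87 ± 0.12 and -6.90 ± 0.13 (SD, n = 3). A further probe begins 162 bases after the stop codon, at chr10:83652547-83652606, and gave -12.29 ± 0.32 (SD, n = 3). Its mix1 signals were 243316, 347646 and 362940, and its iPS signals were 39.0, 86.3 and 73.3 and above background on 2 of 3 arrays. The direction was shared, but the size was not. The gap between the probes was 5.41 log2 units with processed signals and 4.49 after normexp and loess. The part of signals near background in this gap was not tested.

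The minor fibrillar chains of type V collagen, which is built into type I fibrils, were lower as well. Col5a3 read 67.5, 98.3 and 75.0 in the iPS cells against 21785, 23747 and 23019 in mix1, a log2 ratio of -8.17 ± 0.22 (SD, n = 3). Its iPS signal was above background on 1 of 3 arrays, and after normexp and loess the ratio was -7.52. Col5a2 had a log2 ratio of -7.78 ± 0.11 and Col5a1 one of -6.35 ± 0.04 (SD, n = 3), both called lower. Col11a1, a chain of the type XI collagen of cartilage fibrils, followed at -4.93 ± 0.04, and Col27a1 and Col11a2 had the smallest differences among the called fibrillar genes, at -1.87 ± 0.13 and -1.75 ± 0.14.

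Col2a1, the collagen of cartilage, was the fibrillar member that was not called. Its iPS signals of 124.5, 147.9 and 140.2 and its mix1 signals of 208.8, 239.6 and 229.3 were close to each other without overlapping. The log2 ratio of -0.72 ± 0.03 (SD, n = 3) was distinguishable from 0 (limma, adjusted p = 4.27e-05) but did not reach the size required for a call. A second, dimmer probe gave -0.21, 0.05 and -0.31 on the 3 arrays, the only tested probe of the 47 genes with a ratio above 0 on any array.

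Type I and type III collagen are not made only by fibroblasts, so marker lists of several cell types were read beside them. Over all genes tested, 24.5% were called lower and 30.9% higher, or 18.7% and 28.9% with probes above background in both channels. All 10 fibroblast markers, such as Dcn and Pdgfra, were called lower, 8 of them above background in both channels, and their summed signal was 17863 to 22700 in the iPS cells and 1426266 to 1851626 in mix1. Of the 6 macrophage markers 5 were called lower, 3 of them above background in both channels, with sums of 2234 to 3040 against 114458 to 136881. Osteoblast and chondrocyte markers were tested for 3 genes each and called lower for 2 and 3. The osteoblast gene that was not called, Ibsp, had a log2 ratio of 0.46 ± 0.09 (SD, n = 3), above 0 on each array. Of the chondrocyte genes, 2, Agc1 and Sox9, passed the filter through mix1 alone. Sp7, Runx2, Dmp1 and Bglap2 did not reach background on enough arrays to be tested. Of the pluripotency markers with a probe, Nr0b1, Dnmt3b and Pou5f1 were called higher, the last at least 4.53-fold, and Lin28 was not called. The part of these cell types in the collagen ratios was not tested.

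**Figure D3:**
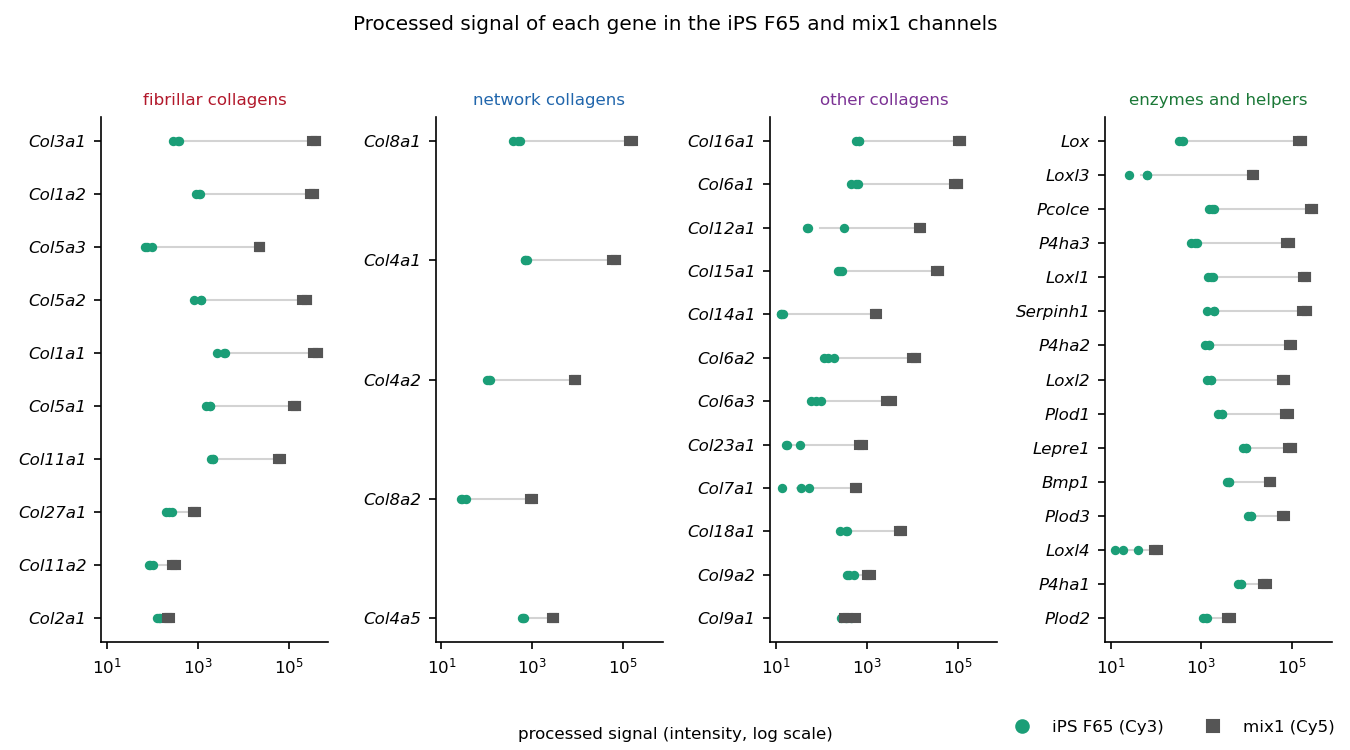
Processed signal of each tested gene in the iPS F65 channel (green circles) and the mix1 channel (grey squares), 3 arrays each, on a log axis, by class. The channels overlap for Col9a1 and lie apart for the other 41 genes; over all genes tested, every iPS signal lay below every mix1 signal for 36.6%. With probes above background in both channels, this held for 33 of 34 members and 33.1% of all genes. The circles of several genes sit below a signal of 100, near background.

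Network collagens do not form fibrils. Col4a1 and Col4a2, the chains of the type IV collagen found in all basement membranes, lie head to head and share the sequence between their starts. In RefSeq (GRCr8) this stretch is 76 bases long, chr16:84885521-84885596, and is shown on the plus strand, with a match to the GC box GGGCGG, here on the minus strand, in capitals.
Between Col4a2 and Col4a1: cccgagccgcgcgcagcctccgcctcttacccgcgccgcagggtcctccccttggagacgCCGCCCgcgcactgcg
The pair had nearly the same ratio. Col4a1 read 688.5, 778.5 and 709.1 in the iPS cells against 58159, 69119 and 68089 in mix1, a log2 ratio of -6.49 ± 0.09 (SD, n = 3; limma, adjusted p = 6.12e-06). Col4a2 read 98.5, 118.6 and 111.7 against 8170, 9328 and 9194, a log2 ratio of -6.35 ± 0.04 (SD, n = 3; limma, adjusted p = 5.37e-06). The channels did not overlap for either gene.

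A second Col4a1 probe did not show this distance. It lies at chr16:83031262-83031321 (rn3, plus strand), its start 112137 bases before that of the first, and is rich in G and C.
Col4a1 second probe: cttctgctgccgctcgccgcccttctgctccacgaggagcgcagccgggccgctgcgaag
It holds 73.3% G and C against 55% in the first and a median of 43.3% over all probes. Its signals of 3151, 4023 and 3960 in the iPS cells and 7648, 9730 and 10027 in mix1 gave a log2 ratio of -1.30 ± 0.04 (SD, n = 3), lower but 36.5-fold away from the first probe. The part of base composition in this gap was not tested.

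Col8a1, a short-chain collagen of vessel walls and the eye, had the lowest ratio of the network members. It read 373.3, 529.1 and 486.5 in the iPS cells against 132206, 158215 and 160682 in mix1, a log2 ratio of -8.35 ± 0.12 (SD, n = 3; limma, adjusted p = 6.12e-06). Its partner Col8a2 was above background on no array in the iPS cells and was at least 14.6-fold lower. Col4a5, a chain of the kidney and skin basement membranes, differed least among the called network genes, at -2.23 ± 0.02. Col4a4 and Col10a1, the latter a marker of growth plate cartilage, were not tested.

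The other collagens are an unlike group that includes beaded filaments, fibril-associated chains and transmembrane chains. Of 12 tested genes, 11 were called lower, against 24.5% of all genes tested. With probes above background in both channels, 6 of 7 were called lower, against 18.7% of all genes measured so. Col16a1, a chain found on fibril surfaces, read 566.1, 684.6 and 686.0 in the iPS cells against 100176, 119543 and 118778 in mix1. The log2 ratio was -7.45 ± 0.02 (SD, n = 3; limma, adjusted p = 5.37e-06), among the tightest of the class. Col6a1, a chain of the beaded type VI collagen around cells, read 455.1, 643.9 and 570.3 against 83268, 100926 and 101910, a log2 ratio of -7.43 ± 0.12 (SD, n = 3; limma, adjusted p = 6.52e-06). The further chains of the type VI trimer, Col6a2 and Col6a3, had log2 ratios of -6.29 ± 0.22 and -5.41 ± 0.17, the latter with an iPS signal above background on 2 of 3 arrays.

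Col12a1, a fibril-associated chain of tendon and skin, was the member with the widest spread. It read 311.8, 48.9 and 51.2 in the iPS cells against 13904, 15157 and 15862 in mix1. The first iPS value stood apart, was the only one above background, and pulled up the log2 ratio of -7.34 ± 1.61 (SD, n = 3). On the other arrays the log2 ratio was -8.28 and -8.27. Its second probe, which is offset by 20 bases, read 37.0, 53.0 and 59.3 in the iPS cells, above background on no array, and was at least 270-fold lower, so the high value of the first array was not seen there.

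Col15a1 and Col18a1 are the collagens of the basement membrane zone whose ends are released as fragments that act on vessels. Col15a1 had a log2 ratio of -7.16 ± 0.05. Col18a1 read 258.6, 351.6 and 361.6 in the iPS cells against 5068, 5917 and 5783 in mix1, a smaller difference of -4.12 ± 0.15 (SD, n = 3; limma, adjusted p = 1.9e-05). Col14a1, a fibril-associated chain, Col23a1, a transmembrane chain, and Col7a1, the chain of the anchoring fibrils of skin, were at least 23.9-fold, 11.7-fold and 8.82-fold lower. Col9a2, a chain of the type IX collagen that coats the fibrils of cartilage, was called lower at -1.38 ± 0.14.

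Col9a1 gave no single answer. By its brightest probe it read 264.3, 444.0 and 341.4 in the iPS cells against 313.1, 589.4 and 390.5 in mix1, and the log2 ratio of -0.28 ± 0.11 (SD, n = 3; limma, adjusted p = 0.0121) was too small for a call. The probe shown above with its glycine codons read 78.1, 80.3 and 72.2 against 1334, 1735 and 1526, a log2 ratio of -4.31 ± 0.19. Neither probe fell to background in any channel of any array. Which of these represents the gene changes with the processing, and with it the call. Without the array of replicate 2, the second probe was the brighter and Col9a1 was called lower at -4.25.

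**Figure D4:**
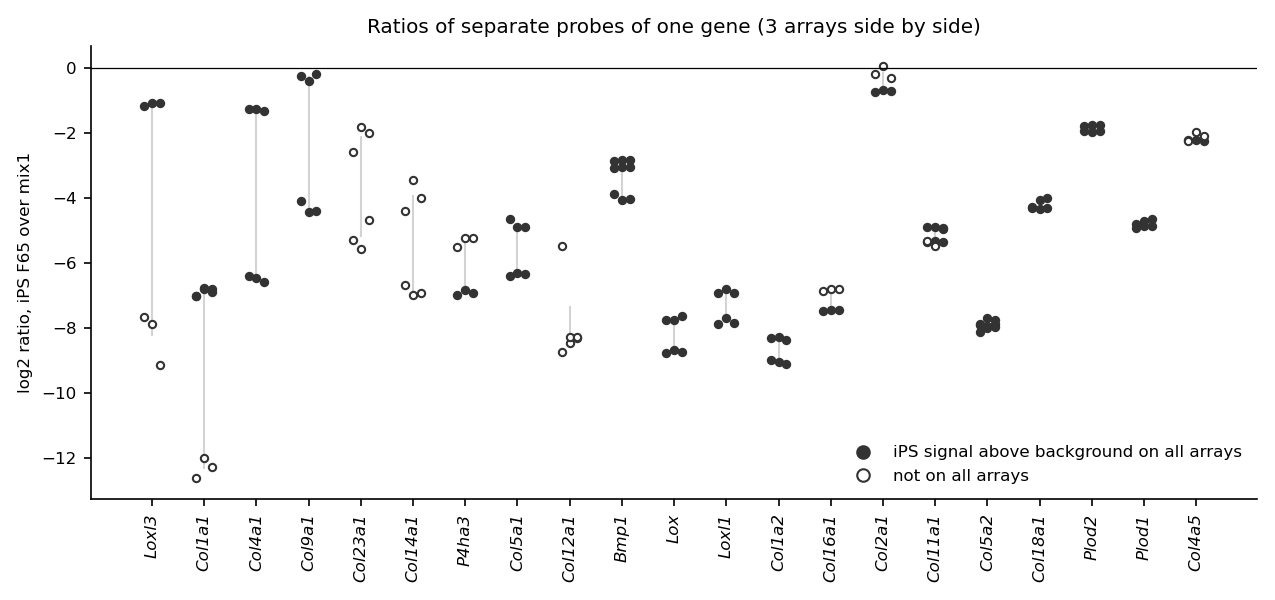
Log2 ratios of the separate probes of each gene with more than 1 tested probe, 3 arrays side by side per probe, filled where the iPS signal was above background on all arrays. Of the 21 genes, 11 had probes over 1 log2 unit apart and 5 over 3 units apart, the widest gap being that of Loxl3.

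The enzymes and helpers were called lower in 15 of 15 cases, against 24.5% of all genes tested, or 14 of 14, against 18.7%, with probes above background in both channels. Lox, the lysyl oxidase that starts the cross-links of collagen and elastin, read 317.3, 392.2 and 378.9 in the iPS cells against 136674, 161244 and 162783 in mix1. Its log2 ratio of -8.73 ± 0.04 (SD, n = 3; limma, adjusted p = 5.37e-06) was the lowest of the class. The related oxidases Loxl1 and Loxl2 had log2 ratios of -6.89 ± 0.07 and -5.45 ± 0.04. Loxl4 was dim in mix1 and above background on no array in the iPS cells, so it is only known to be at least 1.52-fold lower, under the size of a call, and it was not called after normexp and loess.

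Loxl3, a further oxidase of the family, had probes that differed. The brighter was above background on no array in the iPS cells, with signals of 62.8, 63.1 and 24.9 against 12763, 14743 and 13918 in mix1, which puts it at least 210-fold lower. The second probe, above background in both channels on each array, read 148.1, 181.6 and 172.6 against 337.8, 383.6 and 367.6, a log2 ratio of -1.12 ± 0.06 (SD, n = 3). The direction was shared but the size was not.

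Pcolce and Bmp1 work together on the C-terminal end of procollagen, Bmp1 as the proteinase that removes it and Pcolce as its enhancer. Pcolce read 1508, 1887 and 1753 in the iPS cells against 247816, 286468 and 290414 in mix1, a log2 ratio of -7.33 ± 0.07 (SD, n = 3; limma, adjusted p = 5.49e-06). Bmp1 read 3640, 4129 and 4087 against 31149, 34012 and 33636, a log2 ratio of -3.06 ± 0.03 (SD, n = 3; limma, adjusted p = 5.93e-06). The proteinase was thus 8.34-fold lower and its enhancer 160-fold lower, each with separate channels on every array.

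Serpinh1, which encodes the collagen chaperone Hsp47, read 1322, 1932 and 1922 in the iPS cells against 164986, 211750 and 213801 in mix1. Its log2 ratio was -6.85 ± 0.10 (SD, n = 3; limma, adjusted p = 6.13e-06). That of Col1a1 was -6.90 by its brightest probe and -12.29 by another, and Col1a2 and Col3a1 stood at -8.32 and -10.09. Serpinh1 had no probe left when spots of uneven background were left out.

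The hydroxylases ran from a log2 ratio of -6.91 to one of -1.77. The catalytic subunits of prolyl 4-hydroxylase, whose product keeps the triple helix stable at body temperature, had unlike ratios. P4ha1 read 6285, 7443 and 7533 in the iPS cells against 22857, 26824 and 27545 in mix1, a log2 ratio of -1.86 ± 0.01 (SD, n = 3; limma, adjusted p = 6.52e-06). P4ha2 and P4ha3 had log2 ratios of -6.03 ± 0.04 and -6.91 ± 0.09. By these probes the isoform P4ha1 was thus 3.63-fold lower and the others 65.5-fold and 121-fold lower, gaps wider than the spread over arrays. A second P4ha3 probe was above background on no array in the iPS cells and at least 26.6-fold lower. The order of P4ha2 and P4ha3 was therefore not settled. Each of these genes has its own probes, whose range of response was not tested.

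The same held for the lysyl hydroxylases, which prepare lysines for cross-links and sugar chains. Plod1 read 2268, 2851 and 2801 in the iPS cells against 68420, 82651 and 81836 in mix1, a log2 ratio of -4.88 ± 0.03 (SD, n = 3; limma, adjusted p = 5.37e-06). Plod3, which also adds glucose to collagen, had a log2 ratio of -2.46 ± 0.04, and Plod2, which acts on the ends of the chains, one of -1.77 ± 0.02. Lepre1, prolyl 3-hydroxylase 1, stood at -3.35 ± 0.01. By their brightest probes, P4ha1, Plod2, Plod3, Bmp1 and Lepre1 were the enzymes above background in both channels that differed by less than 16-fold.

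The class medians were compared array by array, as a description only. The median of the fibrillar collagens was lower than that of the enzymes and helpers by a log2 difference of -1.22, -1.11 and -1.19 on the 3 arrays, and that of the network collagens by -0.89, -0.86 and -0.94. For the other collagens the difference was 0.01, -0.37 and -0.55, with no single direction. The order of the classes changed with the probes used and with the background correction. With spots of uneven background left out, Col1a1, Col1a2 and Col3a1 had no probe left and the fibrillar median was 0.24 above that of the enzymes. The network median was 0.44 above it with no filter on dim probes and 0.86 above it with normexp on the local backgrounds as given. The other collagens lay 1.05 above the enzymes with normexp after uneven backgrounds were replaced.

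Genes of collagen biosynthesis outside the rule were read from a list. Of 21 genes listed, 15 had a probe under the names searched and 13 were tested. Of these, 11 were called lower (9 of them above background in both channels), against 24.5% of all genes tested. Of the remaining genes, 1 was called higher, against 30.9% of all genes, and Pepd was not called. The median log2 ratio of the 13 was -2.63. Among those lower were Leprel2 (prolyl 3-hydroxylase 3) at -5.30 ± 0.04 and Creb3l1, a transcription factor that switches on collagen genes in bone, at -3.82 ± 0.12. P4hb, the subunit shared by the prolyl 4-hydroxylases, stood at -2.17 ± 0.08, and Ppib, the partner of prolyl 3-hydroxylase 1, at -1.60 ± 0.02. The coat proteins Sec23a and Sec24d, which carry procollagen out of the endoplasmic reticulum, had log2 ratios of -1.81 ± 0.002 and -2.63 ± 0.04. Tll1, a proteinase related to Bmp1, was above background on no array in the iPS cells and at least 15.7-fold lower.

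Leprel1, prolyl 3-hydroxylase 2, went the other way. It read 696.9, 769.1 and 830.6 in the iPS cells against 222.7, 249.7 and 256.3 in mix1, a log2 ratio of 1.66 ± 0.04 (SD, n = 3; limma, adjusted p = 1.18e-05). All 3 iPS signals were above all 3 mix1 signals. The 3 prolyl 3-hydroxylases measured therefore stood at -3.35, 1.66 and -5.30.

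Collagen receptors were read from a further list. Of 8 listed genes 7 had a probe and 5 were tested. Itga1 and Itgb1, above background in both channels, were called lower, whereas Itga10, Itga11 and Mrc2 passed the filter through mix1 alone and had to be lower. Itga1 and Itgb1, the subunits of a collagen-binding integrin, had log2 ratios of -4.45 ± 0.02 and -2.67 ± 0.01. Itga11, the subunit of a receptor for fibrillar collagen, stood at -6.96 ± 0.64, with an iPS signal above background on 2 of 3 arrays. Mrc2, which takes up collagen for breakdown, and Itga10 were above background on no array in the iPS cells and at least 2.74-fold and 1.89-fold lower.

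**Figure D5:**
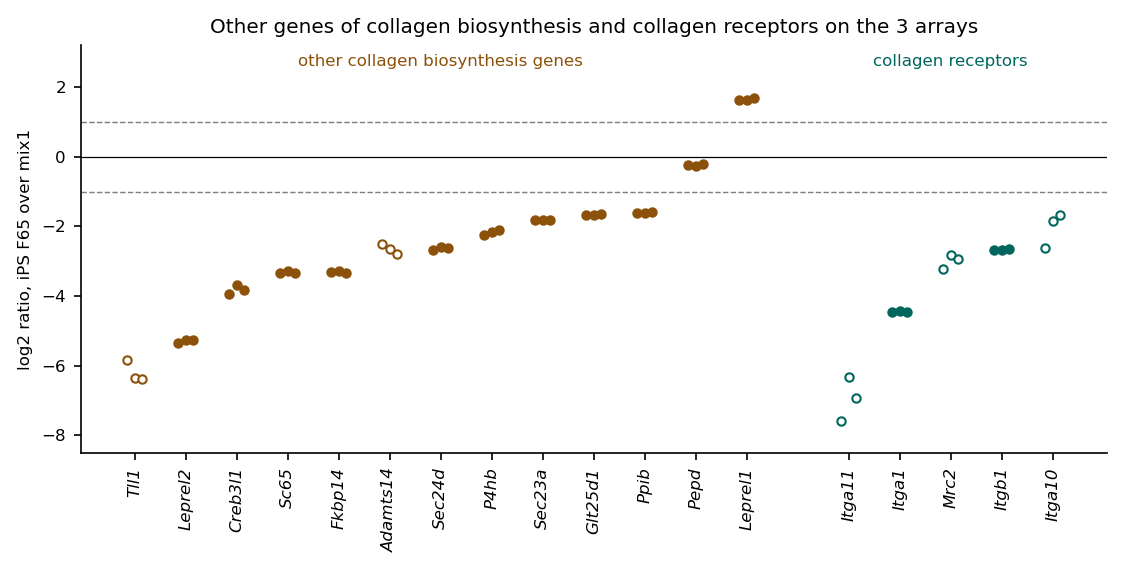
Log2 ratio of iPS F65 over mix1 for the tested genes of collagen biosynthesis outside the rule (brown) and the collagen receptors (teal), 1 point per array, open where the iPS signal was not above background on all arrays. Leprel1 lies above the dashed line of a 2-fold difference, Pepd lies between the dashed lines, and all others lie below.

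The sequence upstream of the genes was described for the 36 members of the classes that have an entry in the RefSeq promoter table (GRCr8). Of these, Col1a2 is shown as a type I collagen gene, by the 250 bases before the start annotated there. They lie at chr4:33518307-33518556 on the plus strand. Where transcription begins was not tested, so part of this stretch may be transcribed. Capitals mark a CCAAT box on the minus strand and a TATA box on the plus strand, which do not overlap.
Col1a2 upstream: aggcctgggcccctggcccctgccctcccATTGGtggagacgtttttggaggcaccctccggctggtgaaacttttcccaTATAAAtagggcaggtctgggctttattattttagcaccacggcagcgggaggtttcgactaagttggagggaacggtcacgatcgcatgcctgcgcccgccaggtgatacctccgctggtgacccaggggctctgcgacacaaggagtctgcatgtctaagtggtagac
Both strands of these 250 bases were searched. The letters CCAAT were found in 9 of 36 members (25%) and in 34% of all 33469 promoter entries, TATAAA in 3 (8.33%) against 12.9%, and GGGCGG in 23 (63.9%) against 30.5%. For members 1 entry per gene was counted, whereas the 33469 entries were not reduced to 1 per gene. A match is a description of these letters and not a site of binding.

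Col4a3bp, the gene caught by name, was the only gene of the rule called higher. It read 718.2, 808.3 and 862.7 in the iPS cells against 346.7, 378.1 and 397.0 in mix1, a log2 ratio of 1.09 ± 0.03 (SD, n = 3; limma, adjusted p = 2.38e-05). It was close to the size required and was not called when array medians were set to 0, at 0.82, or after normexp and loess, at 0.63.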

How the data were processed

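Scanner output came from Agilent Feature Extraction 9.5.3.1, per the file headers. The deposited intensity values are mean signals, local backgrounds and processed signals, the last already corrected for background and dye by that software. The log2 values deposited in the series matrix differed from log2 of Cy3 over Cy5 processed signals by at most 3.11e-06, so they run as iPS F65 over mix1, with column medians of 0.0026, -0.0052 and -0.0601 for replicates 1 to 3. They carry no further centring.

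Each array held 45018 spots, 43379 of them for genes. Control spots and 204 to 213 outlier-flagged spots on an array were removed; saturation was not seen on any gene spot. The share of gene spots well above background was 57.1% to 61.2% for iPS F65 and 58.3% to 62.1% for mix1. The number of arrays, 3, limits the precision. Spots of a probe were averaged, 25801 probes were tested, and a gene of several probes was represented by the brightest. The null of a zero mean log2 ratio was tested over 21805 genes by lmFit and eBayes of limma 3.58.1 in R 4.3.3, with Benjamini-Hochberg adjustment. Mix1 is 1 control sample, so the test leaves out its own spread. The scripts were tested on simulated data. A bound sets the mix1 level against the iPS channel's level or its lowest level above background on each array, whichever was higher. The levels were processed signals after Aquantile normalization, so a bound is open to dye bias. Gene and probe names are those of the array design.

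Genes described with all values were, per class, the 3 with the largest ratios, any member against its class or with probes of opposite sign (none), and 12 genes chosen by name. Members and lists were chosen with earlier results of these data known, and no test over the members was made. The alternatives tried were other background corrections with loess, array medians set to 0, other filters, the mean over probes, the series matrix values, uneven spots left out, and each replicate left out.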

Additional observations from a re-analysis of the deposited data

How the results depend on the processing

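The call of 40 members lower came from the processed signals, and no member changed direction under any alternative run. The 42 tested members and Col4a3bp kept their call with the series matrix values and with no filter. The classes' medians and the counts moved as follows, each given in the order fibrillar, network, other collagens, enzymes and helpers, all genes. With normexp after uneven backgrounds were replaced and loess, the medians were -6.83, -5.99, -4.71, -5.76 and -0.079, and 3979 genes were higher (18.2% of those tested) against 5700 lower, where the processed signals gave 6731 higher and 5340 lower. With backgrounds as given they were -5.52, -3.98, -2.80, -4.84 and 0.03, with 2356 genes higher, 2085 lower and 6 other collagens lower. With no background subtraction they were -6.82, -5.94, -4.63, -5.75 and -0.074, with 3975 genes higher. With array medians set to 0 they were -6.90, -6.62, -6.12, -5.72 and -0.022. With no filter, the network median was -5.01, that of the other collagens -5.18 and that of all genes -0.02. With only probes above background in both channels, which lost 8 members, they were -6.35, -6.42, -6.29, -5.17 and 0.29, with 3234 genes and 6 other collagens lower. With the mean over probes they were -6.74, -5.01, -5.41, -4.80 and 0.27. With uneven spots left out, which lost 5 members including Col1a1, Col1a2 and Col3a1, the fibrillar, other, enzyme and all-gene medians were -4.93, -6.29, -5.17 and 0.26. The cause of these shifts was not tested, apart from the members lost.

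Leaving out 1 array in turn gave fibrillar medians of -6.67 to -6.58, network medians of -6.37 to -6.33, medians of -5.96 to -5.80 for the other collagens and -5.46 to -5.43 for the enzymes, with 5273 to 5314 genes lower and 6684 to 6718 higher. Of the 42 tested members and Col4a3bp, 10 genes lost their call with backgrounds as given, among them Col4a3bp itself at 0.36, Col6a3 at -2.75 and Col14a1 at -2.45. Loxl4 and Col4a3bp lost it with normexp and loess, at -0.79 and 0.63, and Col9a1 gained one there, at -3.72. No paired analysis was possible because the series has a single group of 3 samples, so no block of replicate numbers across groups could be fitted. The ratio within each array already pairs iPS F65 with mix1. Members above background on no array in the iPS channel have only a bound, which signal over background limits. Col5a3 and Col12a1, above background there on 1 array, and Col6a3, on 2 arrays, were given no bound and kept their mean ratio.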

Other observations

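Basement membrane and endoderm genes were read beside type IV collagen, which is made in quantity by parietal endoderm. Of 8 markers listed for that cell type, 5 were tested and 4 of these were called lower, 3 of them above background in both channels. The 4 were Sparc at -7.43 ± 0.05, Dab2 at -5.35 ± 0.01, Gata6 at -2.93 ± 0.16 and Lamb1 at -1.26 ± 0.01 (log2 ratio, SD, n = 3). The iPS signal of Gata6 was above background on 2 of 3 arrays, so it passed the filter through mix1 alone and had to be lower. Lama1, a laminin chain of early basement membranes, was called higher, with signals of 758.2, 881.8 and 906.9 in the iPS cells against 66.4, 89.6 and 91.9 in mix1 and a log2 ratio of 3.37 ± 0.12. The mix1 signal of Lama1 was above background on 2 of 3 arrays, so it passed the filter through the iPS channel alone and had to be higher. After normexp and loess the ratio was 2.12. No comparison of direction between Lama1 and Col4a1 or Col4a2 is drawn from this. Sox17, Sox7 and Gata4 were not tested. Of all genes tested, 24.5% were called lower and 30.9% higher, or 18.7% and 28.9% with probes above background in both channels. The summed signal of the tested markers was 6585 to 7790 in the iPS cells and 398399 to 498427 in mix1, of which Sparc alone gave 362712 to 457114.

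Smooth muscle cells also make collagen. Of the 3 markers tested, Tagln was called lower at -7.32 ± 0.08 and Cnn1 at least 42.6-fold lower, while Myh11 was not called at -0.28 ± 0.09. Endothelial genes were mostly untested, with Pecam, Cdh5, Vwf and Emcn not above background on all arrays of either channel. Among the 2 that were tested, Tek was at least 4.16-fold higher in the iPS cells and Kdr was not called at -0.84 ± 0.04.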
